A study of Ramazzottius varieornatus with 48 samples.

Results

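The transition from 3 h to 4 h after UVC exposure was examined in *Ramazzottius varieornatus*, a terrestrial tardigrade, by comparing the 3 libraries collected at 4 h directly with the 3 collected at 3 h. These are 6 of the 48 RNA-seq libraries of the study, which sampled exposed animals in a time series called Short and another called Long. Expression was available as TPM, the share of a library's estimated transcripts that belongs to each transcript, scaled to the same total in every library. Of the 14532 transcripts in the table, the 11755 with a mean of at least 1 TPM over these 6 libraries were compared, and the non-exposed libraries were used neither in this choice nor in any fit.

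Both groups were whole animals of the strain YOKOZUNA-1, 30 pooled per library, irradiated with a UV-C lamp on a gel from which free water had been drawn off, a step that leaves the animals hydrated, and then kept in water in the dark at 22 °C until collection at 4 h or at 3 h. They therefore share the exposure and differ only in the time since it. The labels give no mutant, agent or sorting step. The study's methods describe the pools of animals as biological replicates, from which 3 per condition were picked by the integrity of their RNA, and p-values measure the spread between these libraries.

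UVC is absorbed by DNA, where it joins neighbouring pyrimidines, and it also gives rise to oxidative damage. Animal cells answer with enzymes that reverse or excise the lesions, with poly(ADP-ribose) polymerases (PARPs) that mark breaks, and with the Ku heterodimer that holds broken ends for non-homologous end joining. Tardigrades tolerate high doses of radiation, and they carry families of heat-soluble proteins known for protection during drying.

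The libraries were not of equal quality. Among 7238 transcripts that averaged at least 20 TPM over the whole series, non-exposed libraries included, Short 4 h replicates 1, 2 and 3 listed 87, 22 and 386 at exactly 0, while the 3 h libraries listed 24, 17 and 19. Short 4 h replicate 3 thus stood apart, with a rank correlation of 0.766 and 0.779 to the other 4 h libraries and of 0.753 to 0.763 to the 3 h libraries. Short 4 h replicate 2 was closer to the 3 h libraries (0.885 to 0.908) than to the other 4 h libraries (0.779 and 0.867). An exact 0 can be a failed estimate where few molecules were sequenced, so such values are given as listed at 0, and the main results are also given without Short 4 h replicate 3.

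Few single transcripts passed the test. limma, fitted to log2(TPM + 1) of the 24 exposed Short libraries, called 3 of 11755 transcripts (0.0255%) at an adjusted p under 0.05 (Benjamini-Hochberg) and a change of more than 1 on the log2 scale. Of these, 2 were higher (0.017%) and 1 was lower (0.00851%) at 4 h. The count was 0 without Short 4 h replicate 1 and 239 without Short 4 h replicate 2, so it rested on single libraries. With all libraries, 2124 transcripts (18.1%) had an unadjusted p under 0.05, 1423 of them higher (12.1%) and 701 lower (5.96%) at 4 h. The same fit called 0 transcripts (0%) between 2 h and 3 h, where 302 (2.57%) had an unadjusted p under 0.05, and 9 (0.0766%) between 4 h and 5 h, where 1379 (11.7%) did. These counts rest on a spread estimated jointly from all exposed Short libraries. When limma was instead run on each pair of hours separately, 574 transcripts were under that p between 2 h and 3 h. The separate runs gave 1249 between 3 h and 4 h and 372 between 4 h and 5 h, with 0 calls in each. The excess over the 2 h to 3 h step was thus smaller than with the joint spread, while the 4 h to 5 h count fell below that step. The neighbouring steps share libraries with the step described here and are given only for scale.

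The first of the 3 was g1401.t1, a transcript without a protein name in the study's tables. It had 11.6, 8.93 and 22.1 TPM at 4 h, against 0, 0.945 and 0 TPM at 3 h. The groups did not overlap, and the log2 fold change was 3.51 with an SE of 0.56 (limma, Benjamini-Hochberg adjusted p = 0.0242). The second, g7829.t1, also without a name, had 138, 96.6 and 97.9 TPM at 4 h, against 50.9, 43.0 and 35.8 TPM at 3 h. Every 4 h library was above every 3 h library, and limma gave a difference of 1.33 ± 0.21 (SE) on the log2 scale (adjusted p = 0.0242). The third, g3373.t1, which has no Swiss-Prot match, had 619, 712 and 461 TPM at 4 h, against 1254, 1660 and 1448 TPM at 3 h. All its 4 h values were below all its 3 h values, and it fell by 1.30 on the log2 scale (SE 0.21, adjusted p = 0.0293, limma). As these are whole animals, fewer cells of a type and less RNA per cell cannot be told apart.

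The 3 transcripts differed in what came before and after. g1401.t1 averaged 0.131, 8.17, 0.315, 14.2, 25.7 and 24.8 TPM at 1, 2, 3, 4, 5 and 6 h, and 41.8 and 37.1 TPM at 9 and 12 h. It was already present at 2 h and nearly absent at 3 h. g7829.t1 averaged 41.9, 69.6, 43.3, 111, 93.8 and 82.3 TPM over the first 6 h, again with more at 2 h than at 3 h. g3373.t1 averaged 1663, 1556, 1454, 597, 1178 and 1239 TPM, so that the 4 h mean was the lowest of these 6.

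Without Short 4 h replicate 3 the test again called 3 transcripts (0.0255%), all higher at 4 h, and 1372 (11.7%) had an unadjusted p under 0.05, of which 990 were higher (8.42%) and 382 lower (3.25%). Only g7829.t1 was among the 3 called with all libraries (log2 fold change 1.41, adjusted p = 0.0303), while g1401.t1 (3.16, adjusted p = 0.0988) and g3373.t1 (-1.12, adjusted p = 0.117) no longer passed. The 2 others were g13857.t1, named X-ray repair cross-complementing protein 5 (XRCC5), the larger subunit of the Ku heterodimer, and g13685.t2, a transcript with 40.5, 42.9 and 0 TPM at 4 h that was listed at 0 in all 3 libraries of 3 h. In the other exposed Short libraries g13685.t2 was above 0 only in Short 2 h replicate 1 (3.49 TPM) and Short 5 h replicate 1 (12.7 TPM). As its identifier marks an isoform, these values are not those of its gene, whose sum is not given here.

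XRCC5 (g13857.t1) was the only transcript with a protein name that passed in either fit. It had 113, 95.9 and 38.3 TPM at 4 h, against 31.0, 32.0 and 27.8 TPM at 3 h. The 3 h libraries were nearly equal and all lay below the 4 h libraries, of which replicate 3 was the lowest. The log2 fold change was 1.28 ± 0.29 (SE) with all libraries (limma, adjusted p = 0.0784) and 1.75 without Short 4 h replicate 3 (adjusted p = 0.00311, limma).

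**Figure D1:**
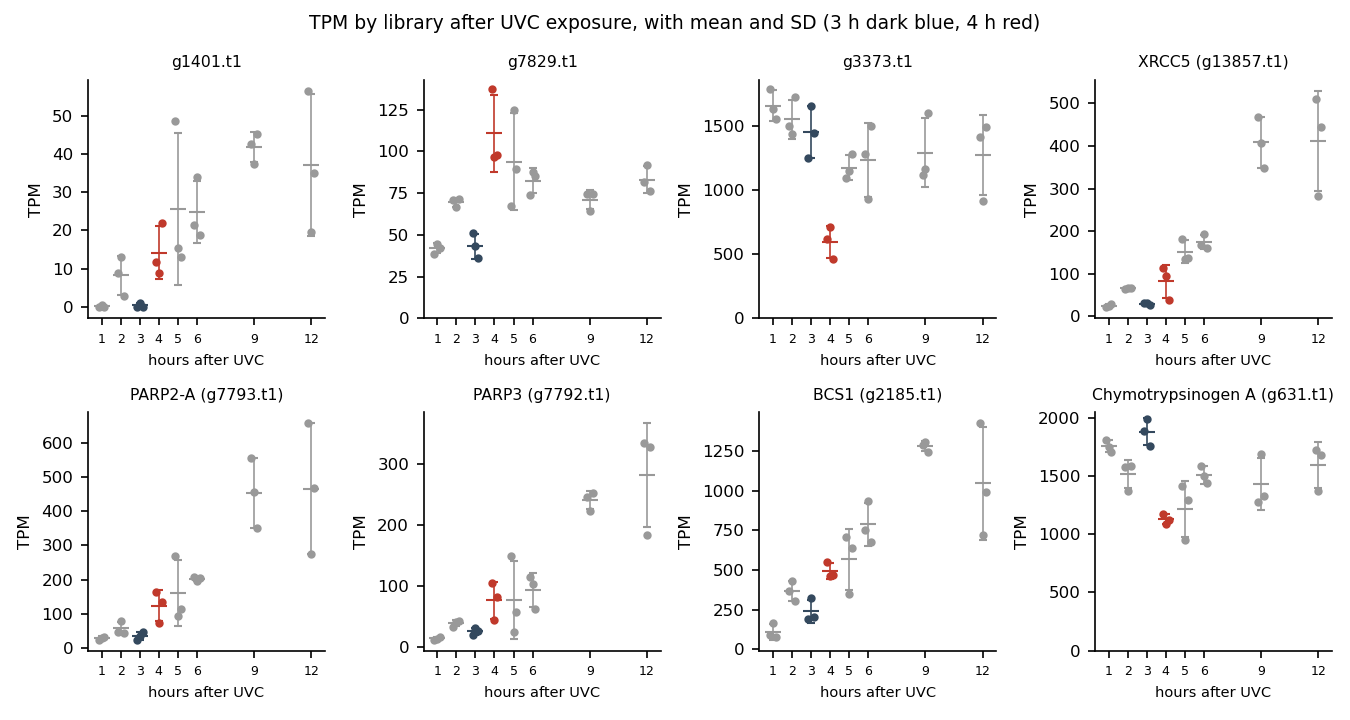
TPM (vertical axis, linear) in each exposed Short library against hours after UVC exposure for 8 transcripts, with 3 h in dark blue, 4 h in red and the other hours in grey; dashes and bars give the mean and SD of 3 libraries. In all 8 panels the 4 h points lie wholly above or wholly below the 3 h points, and XRCC5 goes on to 408 and 412 TPM at 9 and 12 h.

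The squared differences between 3 h and 4 h were spread over many transcripts. Their sum was 10544, while the spread between libraries alone would give 8544. The shares below therefore do not separate change from spread. When each transcript's log2 difference was squared and summed, the leading 1% (118 transcripts) held 14.4% of the total and the leading 10% (1176 transcripts) 55.3%, and 955 transcripts were needed to reach the midpoint. Without Short 4 h replicate 3 the leading 1% held 18.0% and the leading 10% 60.7%. For scale, the leading 1% held 19.9% between 2 h and 3 h and 15.8% between 4 h and 5 h.

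The summed squared change was 1.23 times what the spread between libraries alone would give, computed as the sum of each group's variance over its number of libraries, and 1.12 times without Short 4 h replicate 3. This ratio was 1.00 between 2 h and 3 h and 0.848 between 4 h and 5 h, and 1.28 between 1 h and 2 h. It was between 1.08 (without Short 4 h replicate 1) and 1.29 (without Short 4 h replicate 2) when any 1 of the 6 libraries was left out.

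**Figure D2:**
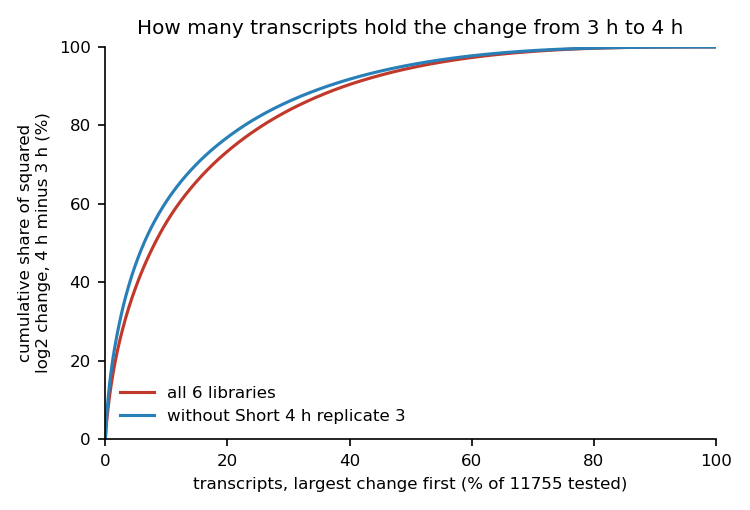
Cumulative share of the summed squared log2 change between 3 h and 4 h (vertical axis, %) against the share of the 11755 transcripts taken in order of their change (horizontal axis, %), for all 6 libraries and without Short 4 h replicate 3. The leading 10% hold 55.3% with all libraries and 60.7% without that library.

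The transcripts with the largest single contributions were mostly those listed at 0 in some libraries. Of the leading 118, 107 (90.7%) had an exact 0 in at least 1 of the 6 libraries, 91 were lower at 4 h and 27 higher. The 2530 transcripts listed at 0 in Short 4 h replicate 3 held 48.8% of the summed squared change. None of the 12 largest was called. g6652.t1 was listed at 0 in all 4 h libraries, against 21.0, 59.3 and 28.8 TPM at 3 h, and g10851.t1 was listed at 0 in all 4 h libraries, against 27.5, 39.5 and 8.56 TPM at 3 h. In the other direction, g8843.t1 had 34.2, 33.7 and 29.9 TPM at 4 h, against 0, 1.19 and 0.330 TPM at 3 h, with an adjusted p of 0.0998 (limma). In all, 87 transcripts were listed at 0 in every 4 h library and above 0 in every 3 h library, and 5 showed the opposite.

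Several of the leading transcripts were isoforms of genes with more than 1 model. Such transcripts made up 7.23% of those compared (850 transcripts), 33.9% of the leading 118 (40 transcripts) and 5 of the 12 largest. g10432.t2 had 23.9, 38.5 and 72.9 TPM at 4 h and was listed at 0 in all 3 h libraries. Summed over its 3 isoforms, the gene had 107 ± 3.27 TPM at 4 h and 59.5 ± 3.24 TPM at 3 h (SD, n = 3 each). g9319.t1 had 53.9, 2.81 and 69.2 TPM at 4 h, against values close to 0 at 3 h, while its gene sum was 76.3 ± 32.0 TPM at 4 h and 47.7 ± 8.39 TPM at 3 h (SD, n = 3 each). g1098.t1 was listed at 0 in all 4 h libraries, against 37.5, 28.4 and 16.0 TPM at 3 h, and its gene sum was 34.6 ± 22.6 TPM at 4 h and 47.6 ± 15.9 TPM at 3 h. In TPM, the differences of g9319 and g1098 were thus smaller for the gene than for the isoform. For g10432 the difference in TPM was not smaller. The gene, however, already had 59.5 TPM at 3 h, where g10432.t2 was listed at 0, so its relative change was also smaller.

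The direction of the change depended on the level of the transcript. Over all transcripts the median log2 fold change was 0.12, or -0.01 after median scaling, 0.04 after quantile normalization and 0.21 without Short 4 h replicate 3, and 56.2% were higher at 4 h. The medians below are to be read against the shift of the same setting. Among the 129 transcripts with a mean of at least 1000 TPM the median was -0.34 and 26.4% were higher at 4 h, and among the 5122 between 20 and 100 TPM the median was 0.30 and 68.1% were higher. Without Short 4 h replicate 3 these medians were -0.25 and 0.31. Among the 2028 transcripts below 5 TPM the median was -0.36 with all libraries and -0.06 without that library.

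In the same way, the 1000 most abundant transcripts of a library held 61.1, 59.1 and 60.5% of its TPM at 4 h, against 68.0, 65.2 and 64.5% at 3 h. The groups did not overlap, though the smallest p that an exact permutation test of 3 libraries against 3 can give is 0.1. The means at 1, 2, 3, 4, 5 and 6 h were 68.3, 63.8, 65.9, 60.2, 60.2 and 61.2%, so the share at 5 h was that reached at 4 h. As TPM adds up to the same total in every library, less in the leading transcripts is more in all others.

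**Figure D3:**
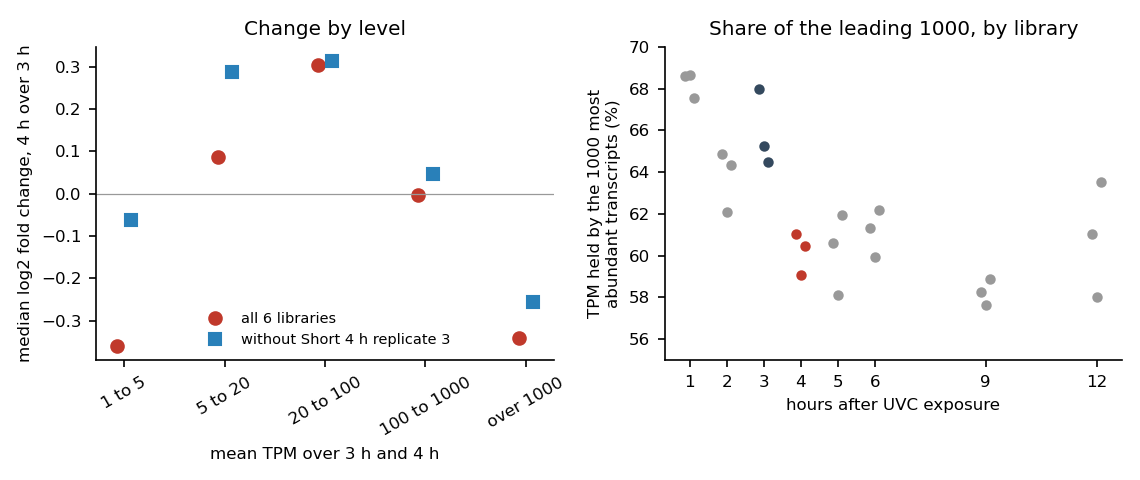
Left, median log2 fold change (4 h over 3 h) for transcripts grouped by their mean TPM over the 6 libraries, with all libraries and without Short 4 h replicate 3. Right, percentage of TPM held by the 1000 most abundant transcripts of each exposed Short library (axis from 55 to 70%), with the 4 h libraries at 59.1 to 61.1% and the 3 h libraries at 64.5 to 68.0%.

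The largest differences in mean TPM were in highly abundant transcripts, most of them without a protein name. Of the 12 largest, 8 were lower and 4 higher at 4 h. g12459.t1, which has no Swiss-Prot match, had 6610, 5931 and 4487 TPM at 4 h, against 9582, 12214 and 7492 TPM at 3 h. Its groups did not overlap, and the difference was -0.77 ± 0.23 (SE) on the log2 scale (limma, adjusted p = 0.128). The next largest were g12750.t1, g1671.t1 and g8269.t1, all lower on average at 4 h. Their groups overlapped (unadjusted p = 0.358, 0.134 and 0.0994, limma). g4313.t1 had 1728, 3294 and 1508 TPM at 4 h, against 3535, 4080 and 3255 TPM at 3 h, with replicate 2 of the 4 h libraries just above the lowest 3 h library. Outside these 12, g4631.t1, likewise without a match, had 817, 1294 and 690 TPM at 4 h, against 1498, 1787 and 2071 TPM at 3 h (log2 fold change -0.97, adjusted p = 0.0974, limma).

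To see whether the step lasted, the 5 h and 6 h libraries were compared with the 1 h and 2 h libraries. This contrast uses none of the 6 libraries at 3 h and 4 h, apart from the filter on level and the shared estimate of the spread. It called 268 of 11755 transcripts (2.28%), of which 162 were higher (1.38%) and 106 lower (0.902%) at 5 to 6 h. The count was 159 without Short 1 h replicate 1, 166 without Short 6 h replicate 3, 175 without Short 5 h replicate 2, 412 without Short 5 h replicate 1 and 484 without Short 5 h replicate 3. The balance of directions turned with the scaling, since median scaling gave 62 higher and 156 lower and quantile normalization 55 higher and 111 lower. The 3 h and 4 h libraries took no part in that contrast, but a small spread within them made a call easier. For sets from a fit of the 1, 2, 5 and 6 h libraries alone, the filter still used them. Those sets held 87 transcripts that rose and 72 that fell, with median differences of 0.92 and -0.89 between 4 h and 3 h. The listing of abundant transcripts at 0 moved in the same sense in both contrasts, with 83, 297 and 75 of 7238 at 5 h and 40, 21 and 92 at 6 h, against 31, 20 and 11 at 1 h and 14, 28 and 23 at 2 h, and its part in the counts below was not tested.

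The 162 transcripts that rose by 5 to 6 h had largely done so at 4 h. Relative to the mean of 1 h and 2 h, their median log2 difference was 1.11, 1.02 and 1.48 in the 4 h libraries, against 0.18, 0.25 and 0.28 in the 3 h libraries. The groups were far apart, with no overlap. At 5 h the 3 libraries stood at 1.15, 1.85 and 1.15, at 6 h at 1.07, 1.04 and 1.25, and at 9 h at 1.02, 1.14 and 1.09. The 5 h and 6 h values were used to choose the transcripts, but the 9 h values entered only the shared spread.

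The 106 transcripts that fell by 5 to 6 h followed a different course. Their median log2 difference from 1 h and 2 h was -0.76, -0.46 and -1.42 in the 4 h libraries, against -0.27, -0.20 and -0.16 in the 3 h libraries. All 4 h libraries were lower than all 3 h libraries, but replicate 3 lay well below the other 2. At 5 h these transcripts stood at -1.60, -2.46 and -1.62, and at 9 h at -0.59, -0.55 and -0.72. Their lowest values were in Short 5 h replicate 2, which, like Short 4 h replicate 3, listed many abundant transcripts at 0 (297 of 7238).

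**Figure D4:**
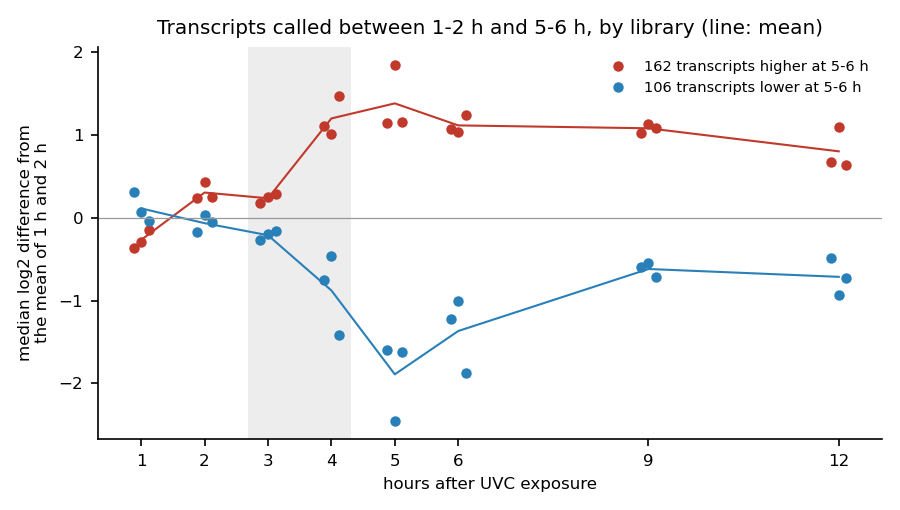
Median log2 difference from the mean of the 1 h and 2 h libraries (vertical axis) against hours after UVC exposure, in each exposed Short library, for the 162 transcripts that rose (red) and the 106 that fell (blue) between 1 to 2 h and 5 to 6 h; lines join the means of 3 libraries. The shaded interval holds 3 h and 4 h, where the red points go to 1.02 to 1.48 at 4 h, against 0.18 to 0.28 at 3 h.

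Counted one by one, 95 of the 162 (58.6%) had all 4 h libraries above all 3 h libraries and 1 had them all below, while over all 11755 transcripts 15.2% had all 4 h libraries above (1791 transcripts) and 5.44% all below (639 transcripts). Of the 106 transcripts that fell, 24 (22.6%) had all 4 h libraries below and 3 all above. Without Short 4 h replicate 3 the corresponding counts were 107 of 162 (66.0%) and 25 of 106 (23.6%), against 23.7% above and 7.78% below over all transcripts. The spread of the 3 h and 4 h libraries entered the fit that chose both sets, so these counts are not independent of it. In the other direction, of the 2124 transcripts with an unadjusted p under 0.05 between 3 h and 4 h, 86.8% (1844) differed in the same direction between 1 to 2 h and 5 to 6 h, against 68.5% of all transcripts.

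The 95 transcripts had a median log2 fold change of 1.11 between 3 h and 4 h (0.46 to 3.51), and 19 of them had a protein name. The 24 that were lower had a median of -1.14 (-0.46 to -4.26), none had a protein name, and 5 were listed at 0 in all 4 h libraries. The tables that give names list only transcripts that the study found induced, so names are scarce among transcripts that were lower. The transcripts named next were chosen after their values had been seen.

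Of 4 PARPs in the tables, 3 were among the named transcripts of the 95. For scale, the 95 come from 11755 transcripts, and 19 of the 560 compared transcripts with a protein name were among them. The PARPs were named in tables of induced genes, so this count is not independent evidence. PARP2-A (g7793.t1), an enzyme that attaches poly(ADP-ribose) near DNA breaks, had 163, 74.6 and 135 TPM at 4 h, against 24.8, 35.1 and 47.6 TPM at 3 h. No 3 h library reached the lowest 4 h library, and the difference was 1.74 ± 0.38 (SE) in log2 units (limma, adjusted p = 0.0656). It rose between 1 to 2 h and 5 to 6 h, where the lowest, median and highest libraries had 93.6, 201 and 270 TPM at 5 to 6 h, against 24.3, 39.1 and 80.3 TPM at 1 to 2 h (log2 fold change 2.05, adjusted p = 0.000292, limma). PARP3 (g7792.t1), which mono-ADP-ribosylates proteins at breaks, had 105, 44.7 and 81.7 TPM at 4 h, against 20.5, 31.8 and 26.4 TPM at 3 h. These groups were also separate (1.46 ± 0.44 in log2 units, SE; limma, adjusted p = 0.133).

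Another member, named PARP2 (g9591.t1), was the most even within the groups. It had 56.2, 51.6 and 55.3 TPM at 4 h, against 23.8, 29.8 and 33.3 TPM at 3 h. The difference was 0.90 ± 0.26 (SE) in log2 units (limma, adjusted p = 0.125), and it rose by 1.30 between 1 to 2 h and 5 to 6 h (adjusted p = 0.000602, limma). Tankyrase-1 (g7822.t1), a PARP with telomeric and signalling roles, averaged 26.7 ± 18.2 TPM at 4 h and 25.8 ± 9.94 TPM at 3 h (SD, n = 3 each), a difference well inside the spread.

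The list of DNA damage repair genes held 14 transcripts, all compared. None was called at the step, 6 had an unadjusted p under 0.05 and were higher at 4 h, against 12.1% of all transcripts, and none of the 14 had such a p and was lower. The median log2 fold change was 0.61, against 0.12 over all transcripts, 0.58 without Short 4 h replicate 3 and 0.34 after quantile normalization, where all transcripts had a median of 0.04. This list and those below were drawn from genes that the study found induced in these samples, so they are not independent evidence of a direction. Summed over the list, TPM was 1177, 943 and 1098 at 4 h, against 624, 690 and 594 at 3 h, and the groups were separate. Between 1 to 2 h and 5 to 6 h, 7 of the 14 were called, all higher at 5 to 6 h, against 1.38% of all transcripts.

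The members of this list fall into several repair routes. The DNA cross-link repair 1A protein (g7411.t1), a nuclease for interstrand links, averaged 54.1 ± 6.52 TPM at 4 h and 27.0 ± 5.18 TPM at 3 h (SD, n = 3 each). UV-damage endonuclease (g12984.t1), which in fungi and bacteria nicks DNA next to UV lesions, had 77.1, 52.7 and 113 TPM at 4 h, against 42.0, 47.8 and 52.0 TPM at 3 h. The 4 h libraries only just cleared those of 3 h, and the log2 fold change was 0.70, or 0.43 without Short 4 h replicate 3. Deoxyribodipyrimidine photo-lyase (g7472.t1), which reverses pyrimidine dimers using light, averaged 83.8 ± 13.3 TPM at 4 h and 67.0 ± 6.21 TPM at 3 h (unadjusted p = 0.177, limma).

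The small subunit of ribonucleotide reductase (g5355.t1), which makes deoxyribonucleotides, averaged 97.2 ± 8.22 TPM at 4 h and 66.1 ± 7.56 TPM at 3 h (SD, n = 3 each). Its groups were separate, with a log2 fold change of 0.55 (unadjusted p = 0.0874, limma). Proliferating cell nuclear antigen 2 (g11126.t1), the sliding clamp, averaged 76.6 ± 12.0 TPM at 4 h and 63.3 ± 24.9 TPM at 3 h, with overlapping groups. A second transcript named XRCC5 (g1132.t1) averaged 39.6 ± 28.8 TPM at 4 h and 26.4 ± 0.314 TPM at 3 h, where the 4 h libraries spread across the 3 h values.

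For several of these transcripts the 3 h libraries were lower than those of 2 h, so the step began from a low point. XRCC5 (g13857.t1) averaged 25.1 ± 3.99, 66.4 ± 1.70, 30.2 ± 2.17, 82.3 ± 39.0, 152 ± 27.1 and 174 ± 16.9 TPM at 1, 2, 3, 4, 5 and 6 h (SD, n = 3 each). Its 2 h libraries were all above its 3 h libraries, with a log2 difference of -1.11 at 3 h against 2 h (unadjusted p = 0.00116, adjusted p = 1, limma). PARP2-A averaged 29.6, 57.3, 35.8, 124, 160 and 203 TPM over the same hours, and PARP3 14.4, 38.9, 26.2, 77.1, 77.3 and 93.2 TPM. In 12 of the 14 repair transcripts the fitted level was lower at 3 h than at 2 h, against 6573 of all 11755 transcripts. The median log2 difference of the 14 was -0.21, against -0.05 over all transcripts. No transcript was called between 2 h and 3 h, so these differences are given as values.

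The mitochondrial chaperone BCS1 (g2185.t1), an AAA protein that in other species inserts the Rieske subunit into respiratory complex III, was the most abundant named transcript of the 95. It had 549, 461 and 466 TPM at 4 h, against 188, 323 and 204 TPM at 3 h. The groups were separate, by 1.08 ± 0.30 (SE) in log2 units (limma, adjusted p = 0.12). It rose by 1.76 between 1 to 2 h and 5 to 6 h (adjusted p = 0.000195, limma), and its mean reached 1283 TPM at 9 h. Of the 7 chaperones, 2 were higher at 4 h at an unadjusted p under 0.05, against 12.1% of all transcripts. None was lower, against 5.96%. The 2 were BCS1 and DnaJ homolog subfamily C member 17 (g4452.t1), a co-chaperone of the HSP40 type. The latter had 67.1, 101 and 52.3 TPM at 4 h, against 49.1, 43.0 and 37.5 TPM at 3 h. The list's median was 0.09, and it was below 0 after median scaling (-0.04), after quantile normalization (-0.17) and without Short 4 h replicate 3 (-0.01).

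Of 8 histone transcripts, 5 were higher at 4 h at an unadjusted p under 0.05 and none was lower by that measure, against 12.1% and 5.96% of all transcripts, and none was called. The median was 0.65, and 0.42 without Short 4 h replicate 3. In 3 of the 8 all 4 h libraries were above all 3 h libraries and in 1 all were below, against 15.2% and 5.44% of all transcripts. Summed over the list, TPM was 3260, 3429 and 5017 at 4 h, against 3983, 3358 and 2709 at 3 h, and these ranges overlapped. The highest sum was in Short 4 h replicate 3. Core histone macro-H2A.1 (g312.t1), a large variant of H2A, had 279, 248 and 148 TPM at 4 h, against 144, 119 and 114 TPM at 3 h, and the histone H3.3-like transcript (g12081.t1) had 87.2, 59.0 and 94.9 TPM at 4 h, against 44.5, 49.0 and 18.8 TPM at 3 h. Both sets of groups were separate, and both transcripts rose between 1 to 2 h and 5 to 6 h. In contrast, a transcript of histone H4 (g7436.t1) had 669, 555 and 974 TPM at 4 h, against 1235, 1214 and 1069 TPM at 3 h, and so was lower in all libraries (unadjusted p = 0.0598, limma).

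Of 21 transcripts of the ubiquitin and proteasome system none was called at the step. A log2 fold change above 0 was found in 18, against 56.2% of all transcripts, and an unadjusted p under 0.05 in 7, all 7 higher, against 12.1%. The median was 0.44, or 0.31 after median scaling and 0.28 after quantile normalization. The regulatory subunit 4 of the 26S proteasome (g3560.t1), an ATPase of the cap, had 211, 185 and 147 TPM at 4 h, against 132 TPM in each of the 3 libraries at 3 h. The groups were separate, if close in replicate 3. Ubiquitin-conjugating enzyme E2 L3 (g5471.t1) had 322, 226 and 391 TPM at 4 h, against 185, 206 and 172 TPM at 3 h. The most abundant member, polyubiquitin-A (g1328.t1), had 2009, 2505 and 1544 TPM at 4 h, against 1802, 2106 and 1696 TPM at 3 h, which overlap. The E3 ligase arih1 (g2446.t1), outside this list, was among the 95 and rose by 1.31 between 1 to 2 h and 5 to 6 h (adjusted p = 2.25e-05, limma); it had 70.2, 92.3 and 86.0 TPM at 4 h, against 50.5, 50.4 and 52.9 TPM at 3 h.

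Transcription and splicing genes had a median of 0.36, or 0.62 without Short 4 h replicate 3, 0.23 after median scaling and 0.21 after quantile normalization. Of 20 transcripts none was called, 5 were higher at an unadjusted p under 0.05, against 12.1% of all transcripts, and none was lower by that measure, against 5.96%. The PHD finger-like domain-containing protein 5A (g13156.t1), a part of the SF3b splicing complex, had 167, 168 and 265 TPM at 4 h, against 109, 29.2 and 123 TPM at 3 h. The second largest subunit of RNA polymerase II, RPB2 (g6704.t1), had 59.2, 55.0 and 62.5 TPM at 4 h, against 19.2, 27.8 and 41.7 TPM at 3 h. In both, all 4 h libraries were the higher. Among 14 transcription factors and stress kinases, 4 were higher by the same measure, including the transcriptional repressor NF-X1 (g11467.t1), with 60.9, 77.3 and 59.6 TPM at 4 h, against 27.5, 41.0 and 53.5 TPM at 3 h, and Kelch-like ECH-associated protein 1 (g9232.t1), the sensor of oxidants that holds NRF2 in mammals.

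**Figure D5:**
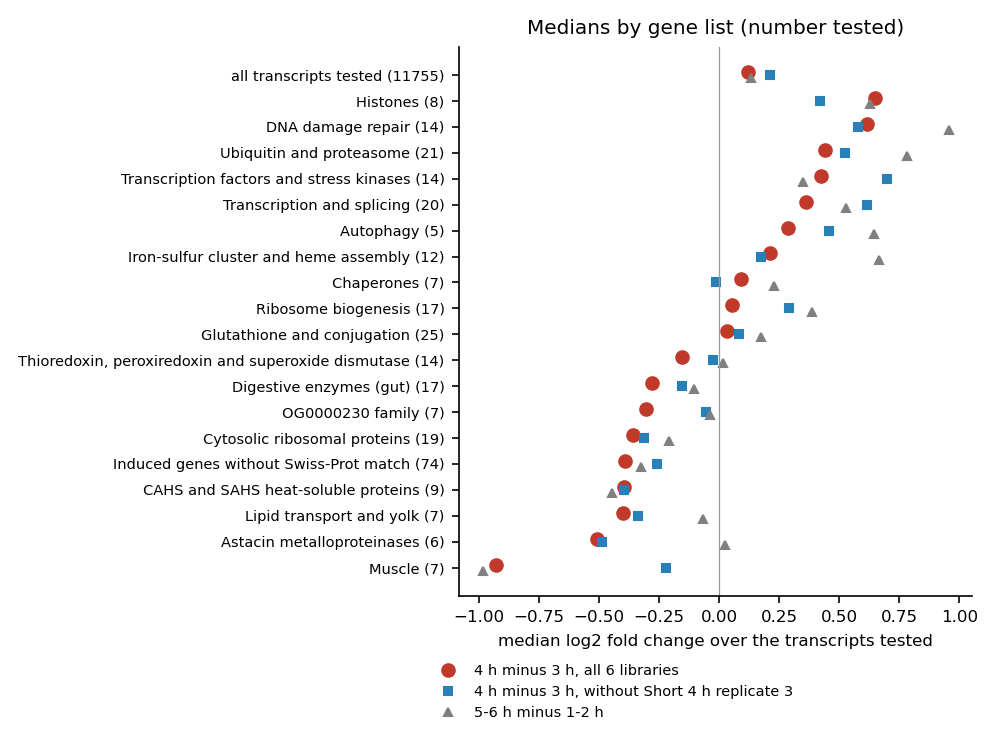
Median log2 fold change over the transcripts of each gene list (number compared in brackets) and over all transcripts, for 4 h minus 3 h with all libraries, for 4 h minus 3 h without Short 4 h replicate 3, and for 5 to 6 h minus 1 to 2 h. DNA damage repair stands at 0.61, cytosolic ribosomal proteins at -0.36 and all transcripts at 0.12 for 4 h minus 3 h.

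Of 19 transcripts of cytosolic ribosomal proteins none was called at the step, and 16 had a log2 fold change below 0 and 3 above it. Over all transcripts 56.2% were above 0. Of the 19, 9 had an unadjusted p under 0.05 and were lower, against 5.96% of all transcripts, and none was higher by that measure. The median was -0.36, or -0.31 without Short 4 h replicate 3, -0.50 after median scaling and -0.21 after quantile normalization. In 12 of the 19 all 4 h libraries were below all 3 h libraries, against 5.44% of all transcripts. The summed TPM of the 19 was 12626, 10538 and 9502 at 4 h, against 14546, 14123 and 13285 at 3 h, without overlap. At 2 h it was 13370, 11859 and 11386, which overlaps 4 h. Only 2 of the 19 had a lower fitted level at 3 h than at 2 h, against 6573 of all 11755 transcripts. The median log2 difference of 3 h from 2 h was 0.20, against -0.05 over all transcripts.

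The strongest of these was the 60S ribosomal protein L10 (g1146.t1), with 648, 621 and 497 TPM at 4 h, against 877, 869 and 890 TPM at 3 h (-0.59 ± 0.13 in log2 units, SE; limma, adjusted p = 0.0652). The 3 h libraries were close to each other and above every 4 h library. The 60S ribosomal protein L22 (g5612.t1, a fragment) had 431, 318 and 225 TPM at 4 h, against 563, 606 and 605 TPM at 3 h (log2 fold change -0.91). L10 averaged 954, 701, 879, 589, 683 and 733 TPM at 1, 2, 3, 4, 5 and 6 h, so that here the 3 h libraries were above those of 2 h. Between 1 to 2 h and 5 to 6 h none of the 19 was called, and their median was -0.21.

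Of 17 transcripts of ribosome biogenesis factors none was called. At an unadjusted p under 0.05, 4 were higher and 1 was lower, against 12.1% and 5.96% of all transcripts. The list's median was 0.05, and it was below 0 after median scaling (-0.08) and quantile normalization (-0.25). The 60S export protein NMD3 (g3649.t1) had 52.5, 76.2 and 88.0 TPM at 4 h, against 36.9, 31.2 and 33.2 TPM at 3 h, and the initiation factor 6 (g8691.t1), which keeps the 60S subunit from joining too early, had 239, 197 and 360 TPM at 4 h, against 145, 175 and 119 TPM at 3 h. Fibrillarin (g8379.t1), the methyltransferase of ribosomal RNA, went the other way, with 177, 216 and 174 TPM at 4 h, against 286, 280 and 309 TPM at 3 h. No group overlapped in these 3 transcripts.

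Among abundant secreted proteins, chymotrypsinogen A (g631.t1), the precursor of a digestive protease, was lower at 4 h. It had 1178, 1091 and 1119 TPM at 4 h, against 1891, 1990 and 1758 TPM at 3 h. The spread within each group was small and the difference was -0.73 ± 0.15 (SE) in log2 units (limma, adjusted p = 0.0652). The most abundant of this list, a chymotrypsin-like elastase (g630.t1), had 2384, 1674 and 2095 TPM at 4 h, against 2156, 2314 and 2350 TPM at 3 h, and overlapped. The 17 digestive enzymes had a median of -0.28. At an unadjusted p under 0.05, 1 of them was higher and 2 were lower, against 12.1% and 5.96% of all transcripts. The summed TPM of the 17 overlapped between 4 h (5411 to 7558) and 3 h (7250 to 8404).

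Of 6 astacin metalloproteinases, a family of secreted zinc proteases, none was called, 3 were lower at an unadjusted p under 0.05, against 5.96% of all transcripts, and none was higher, with a median of -0.51. The most abundant, nas-14 (g11193.t1), had 2774, 1898 and 1636 TPM at 4 h, against 3009, 3225 and 2880 TPM at 3 h, and its groups were separate. Of 74 induced transcripts without a Swiss-Prot match, 13 were lower and 2 higher at an unadjusted p under 0.05. Over all transcripts the shares were 5.96% and 12.1%. The list's median was -0.39, and -0.26 without Short 4 h replicate 3. g4631.t1 and g3373.t1 both lack such a match, although g3373.t1 is not on the list.

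Of 9 cytosolic and secretory heat-soluble proteins (CAHS and SAHS), known for protection during drying, none was called. By an unadjusted p under 0.05, 2 were lower, against 5.96% of all transcripts, and none was higher, with a median of -0.39, or -0.17 after quantile normalization. SAHS 2 (g1681.t1) had 231, 130 and 35.7 TPM at 4 h, against 320, 240 and 233 TPM at 3 h, while CAHS 2 (g5971.t1) had 1279, 722 and 1868 TPM at 4 h, against 1459, 796 and 1195 TPM at 3 h. The first pair of groups was separate and the second overlapped. Of 7 members of the OG0000230 family, a family found in tardigrades, none had an unadjusted p under 0.05 in either direction, and the most abundant (g8595.t1) had 338, 193 and 164 TPM at 4 h, against 309, 247 and 265 TPM at 3 h.

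Redox genes were mixed. The counts in this paragraph, at an unadjusted p under 0.05, are to be read against 12.1% higher and 5.96% lower among all transcripts. Of 25 genes of glutathione metabolism and conjugation, 2 were higher and 3 lower at an unadjusted p under 0.05 (median 0.03, but -0.10 after median scaling and -0.27 after quantile normalization), and of 14 thioredoxins, peroxiredoxins and superoxide dismutases 1 was higher (median -0.15). Glutathione S-transferase Mu 1 (g4017.t1) had 1947, 1338 and 1330 TPM at 4 h, against 2450, 2074 and 1928 TPM at 3 h, and thioredoxin-2 (g11519.t1) had 1677, 1277 and 2099 TPM at 4 h, against 1902, 1907 and 2065 TPM at 3 h. In both, the groups overlapped. Of 12 genes of iron-sulfur cluster and heme assembly 1 was higher (median 0.21), and of 5 autophagy genes 1, a sequestosome-1 (g422.t1) with 980, 1140 and 786 TPM at 4 h, against 639, 785 and 766 TPM at 3 h.

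The remaining markers of single tissues were those of muscle and of lipid transport and yolk. Of 7 muscle transcripts none had an unadjusted p under 0.05, and their summed TPM was 899, 999 and 667 at 4 h, against 733, 1099 and 1358 at 3 h. Their median log2 fold change was -0.93 with all libraries and -0.22 without Short 4 h replicate 3. The list holds g4753.t2, an isoform listed at 0 in that library, while its sister isoform g4753.t1 was higher at 4 h. Summed over isoforms, g4753 had 166 ± 79.2 TPM at 4 h and 143 ± 75.7 TPM at 3 h (SD, n = 3 each). Tropomyosin (g7288.t1) had 377, 442 and 477 TPM at 4 h, against 413, 542 and 556 TPM at 3 h. Of 7 transcripts of lipid transport and yolk none had such a p either, and their summed TPM was 6823, 3646 and 5766 at 4 h, against 5710, 5217 and 6182 at 3 h. Both ranges overlapped, and the part of tissue composition in the results above was not tested.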

How the data were processed

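Whole animals (30 per library) were extracted in TRIzol, and libraries were made from mRNA isolated on oligo(dT) beads. The authors demultiplexed the reads with bcl2fastq, checked them with FastQC and quantified transcripts with kallisto, and deposited TPM for 14532 transcripts in 48 columns, each matched to 1 sample by name. The submitters' notes also name BWA and DESeq2, whose output is not used here. Read depth was not used here and cannot be recovered from TPM, and precision comes from the spread between libraries alone.

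Values were taken as log2(TPM + 1), so that fold changes of low transcripts are understated. Transcripts with a mean of at least 1 TPM over the 6 libraries at 3 h and 4 h were fitted with limma 3.58.1 in R 4.3.3 on the 24 exposed Short libraries, with a trend in the variance (16 residual degrees of freedom), and contrasts were taken from this fit. A call needed an adjusted p under 0.05 (Benjamini-Hochberg over all transcripts fitted) and an absolute log2 fold change over 1. Figures were drawn with Python 3.11.15 and matplotlib 3.10.9. The fit was tested on simulated data in which every library had the same spread for a given transcript. That test therefore does not cover the unequal quality of the libraries described above.

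The text names, by rule, called transcripts (up to 12 in each direction, and up to 6 lost without Short 4 h replicate 3), up to 20 called ones with a protein name, and in each of 19 lists the called members and the 2 most abundant, of which some are given as counts only. The 12 largest squared changes, the 12 largest changes of mean TPM, transcripts called between 1 to 2 h and 5 to 6 h whose 3 h and 4 h libraries do not overlap, and list members at an unadjusted p under 0.05 were added after values had been seen. The members and lists were chosen with earlier results of these data known. Protein names come from Swiss-Prot matches in the study's tables. Alternatives were other pseudocounts, filters, scalings, sets of groups, weights, a replicate block, gene sums and leaving out each library. Near-identical copies can share reads, so that values of paralogs such as the PARP, histone and nas transcripts are uncertain. No sequences are printed, as none was matched to these identifiers. The values of 1 member of the repair list are not reported here, although its counts and medians include it.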

Additional observations from a re-analysis of the deposited data

How the results depend on the processing

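The number of calls between 3 h and 4 h (3) was 8 with a pseudocount of 0.1, 8 without a filter, 5 at a mean of at least 5 TPM, 8 with array weights and 5 with robust moderation, and it was 0 after quantile normalization, 0 when only the 6 libraries were fitted (1249 at an unadjusted p under 0.05, limma) and, in a fit added after seeing the data, 0 when only these without Short 4 h replicate 3 were (1271). Leaving out 1 library gave 0 to 239. It was 0 without Short 4 h replicate 1 (2441 at an unadjusted p under 0.05) and 239 without Short 4 h replicate 2 (100 higher, 139 lower), where 31 were listed at 0 in both libraries left at 4 h. g1401.t1 passed in 9 of 18 alternatives, g7829.t1 in 11 and g3373.t1 in 10, none with a change of direction, and their adjusted p (limma, Benjamini-Hochberg) was 0.00445 to 0.456. XRCC5 passed with array weights (adjusted p = 0.0232, limma) and without Short 4 h replicate 3. Between 2 h and 3 h (0 calls) there were 2 without a filter and 0 to 2 with 1 library left out. Between 4 h and 5 h (9 calls) there were 14 with a pseudocount of 0.1, 15 with 5, 16 with median scaling, 0 when only these groups were fitted, 0 with array weights, 14 for gene sums and 5 to 150 with 1 library left out. Between 1 to 2 h and 5 to 6 h (268 calls) there were 167 with a pseudocount of 5, 166 after quantile normalization (55 higher, 111 lower), 159 when only these groups were fitted, 924 without a fold threshold and 159 to 484 with 1 library left out. Counts were 159 without Short 1 h replicate 1, 412 and 484 without Short 5 h replicates 1 and 3, 175 without Short 5 h replicate 2 and 166 without Short 6 h replicate 3. Median scaling gave 62 higher and 156 lower there.

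The difference between 4 h and 3 h in the median of the transcripts that rose by 5 to 6 h (0.97) was 0.83 to 1.01 under 5 alternatives chosen after seeing the data, and that of the transcripts that fell (-0.67) was -0.40 without Short 4 h replicate 3 and -0.89 to -0.72 under the others. The share of the squared change in the leading 1% was 12.7 to 18.0%.

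Same-numbered libraries at 3 h and 4 h showed little common deviation (correlations 0.02, 0.08 and -0.04). With 3 libraries per hour this cannot decide whether the numbers pair them, and the main fit took them as unpaired. With a replicate block there were 3 calls between 3 h and 4 h, 0 and 9 at the neighbouring steps and 254 between 1 to 2 h and 5 to 6 h, so the block moved no count by more than 1.5 times. With no read counts, what depth limits cannot be given.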
